A study of Arabidopsis thaliana with 50 samples.

Results

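The comparison described here set a complemented line of Arabidopsis thaliana, pp2a-b'γ P35S:PP2A-B'γ, against the mutant pp2a-b'γ (called b'γ here) in the apical parts of leaves. It rests on 10 of the 50 libraries, 5 apical pools of each line, and its value for a gene is the deposited log2 fold change of the complemented line minus that of b'γ, so that the shared wild-type pools cancel. Both lines are in the Col-0 background and both carry the b'γ lesion, while the complemented line also carries PP2A-B'γ behind P35S, a viral promoter that is active in most plant cells. The other apical groups were pp2a-b'γζ and pp2a-b'γ sid2, double mutants with a second lesion in B'ζ or in sid2, the salicylic acid synthesis gene ICS1, and wild type. Each pool joined the apical parts of 7 leaves of plants kept 7 weeks under 8 h days, with light of 130 µmol per square metre and second, 22 degrees C and 50% humidity. The labels describe yellowing and dying cells in the apical parts of b'γ leaves. How many independent transgenic lines the complemented group represents is not given in the sources used here, and a value of 1 line cannot be told apart from a value of complementation in general.

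Protein phosphatase 2A is an enzyme of a catalytic, a scaffold and a regulatory subunit, and the regulatory subunit directs it to its substrates and to a place in the cell. Arabidopsis has a family of B' regulatory subunits, of which B'γ is known as a cytosolic subunit that restrains salicylic acid dependent defence and premature yellowing of leaves. Salicylic acid is a defence hormone made from chorismate in the chloroplast. Leaf senescence is a programme in which chlorophyll, protein and membranes are broken down and their nitrogen is moved to growing organs.

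The deposited table lists 18231 genes, all with a corrected genotype p-value under 0.05 over all 5 lines, and holds no values for single libraries. No SD between pools could therefore be given, and depth is unknown. As error, the largest standard error (SE) that the deposited p-values and fold changes of a gene allow was used, with a median of 0.42 log2 units. A gene is said here to have risen or fallen when it differed at least 2-fold and had an adjusted p under 0.05 in the test with that SE, called the largest-error test below (40 residual degrees of freedom, Benjamini-Hochberg over 25801 genes). Missing that threshold does not show that values were alike, since the SE is an upper limit under the assumed model. That model gives a gene the same residual SD in all groups of pools. Whether the b'γ apical pools varied more than the others cannot be seen without values for single libraries. If they did, the SE may be too small for this comparison. RNA came from whole leaf parts, in which fewer cells of a type and less RNA per cell cannot be told apart.

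B'γ itself (AT4G15415), the gene of the b'γ lesion and of the transgene, had deposited values against wild type of 0.35 in the complemented line and -0.69 in b'γ. Its RNA was thus lower in b'γ than in wild type but not absent. The gene rose by 1.04 (SE 0.06), which is 1 doubling. The smallest difference its widest 95% interval allowed was 0.91, and the largest 1.16. Reads of a transgene and of the endogenous gene are not told apart in these values.

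Of the 9 genes for B' subunits, 8 were listed, and apart from B'γ another B' subunit moved more than the complemented gene did. B'η (AT3G26020), annotated by RefSeq as a subunit of the nucleus and cytosol, had deposited values of -3.28 in the complemented line and 0.16 in b'γ. It fell by 3.44 (SE 0.10), the widest difference of the family. In the deposited table it stood at -0.40 in b'γ sid2 and at 0.05 in b'γζ, so the complemented line alone was far below wild type. Its neighbour B'δ (AT3G26030), the next listed gene on chromosome 3, differed by -0.13 (SE 0.09), and the listed gene on the other side, AT3G26000, differed by -0.31 (SE 0.11). B'α (AT5G03470) was lower by less than 2-fold, with a difference of -0.93 (SE 0.08) and an adjusted p under 0.05, and lies in a stretch of chromosome 5 described further on. AT3G54930, a B' subunit gene named here by its identifier, was 2-fold higher without passing the test, at 1.19 (SE 0.48). B'ζ, a mitochondrial subunit by its RefSeq annotation, differed by 0.14 and the peroxisomal B'θ by 0.40. The 10 listed genes for scaffold, catalytic and B subunits lay between -0.58 and 0.23, and none of them reached 2-fold in either direction.

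**Figure D1:**
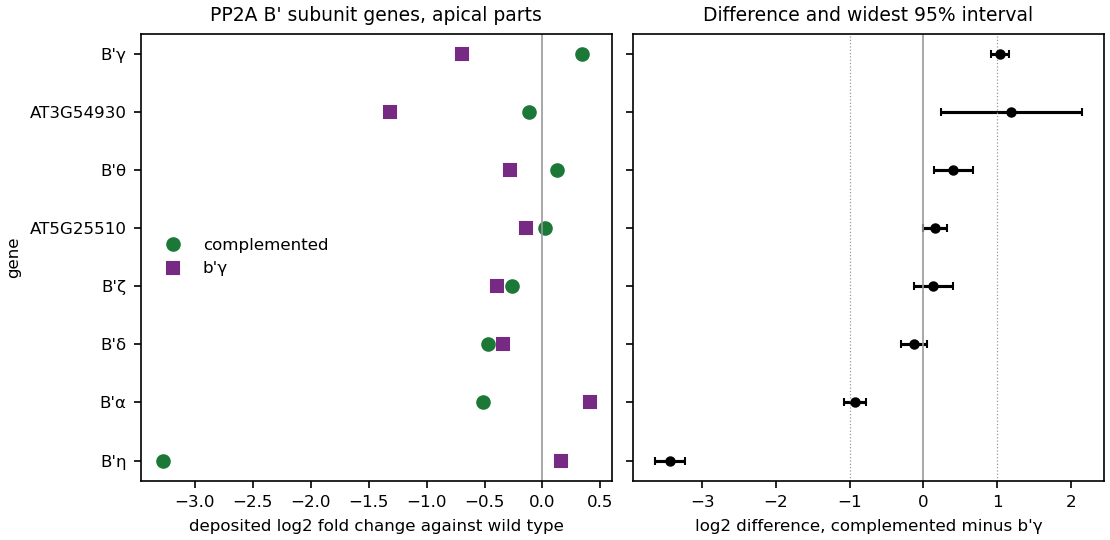
The left plot gives the deposited log2 fold change against wild type of 8 PP2A B' subunit genes in the apical parts, with circles for the complemented line and squares for b'γ. The right plot gives the difference with its widest 95% interval, and dotted lines mark 2-fold. B'γ lies at 1.04, near AT3G54930 at 1.19, and B'η at -3.44 lies below all other members.

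Over all listed genes the complemented line was above b'γ for 8894 and below it for 9298, with a median difference of -0.02 and quartiles of -0.55 and 0.55. The large differences were mostly in the lower direction. At least 2-fold higher values were found for 2347 genes (12.9%) and at least 2-fold lower values for 2759 genes (15.1%). With the largest-error test, 794 genes rose (4.36% of those listed) and 1216 fell (6.67%). Differences of 8-fold or more were found in 94 genes on the higher side and 712 on the lower side, and of 64-fold or more in 1 gene and 133 genes.

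The genes that fell furthest are mostly known from senescing or attacked leaves. SAG12, a vacuolar cysteine protease used as a marker of senescence, had deposited values of 0.14 in the complemented line and 13.02 in b'γ and fell by 12.88 (SE 0.76). DOX1, an alpha-dioxygenase that oxidises fatty acids, fell by 12.76 (SE 1.02), and DIN2, a beta-glucosidase induced in the dark, fell by 11.62 (SE 0.93). KTI1, a Kunitz trypsin inhibitor, fell by 11.44 (SE 1.05), and the osmotin-like protein gene OSM34 fell by 10.29 (SE 1.41). PGAZAT, a polygalacturonase that loosens cell walls at sites of abscission, was listed at exactly 0 in the complemented line and both double mutants and at 10.48 in b'γ. For these 6 genes at least 1 line other than b'γ was listed at exactly 0 or 2 of them shared the lowest value, so the sizes can depend on how the authors treated very low counts. CYP82C2, a cytochrome P450 of indole defence compounds, did not rest on such a value and fell by 10.65 (SE 1.14). AT2G44240 fell by 10.74 (SE 0.85), the pectinesterase gene AT2G45220 fell by 10.37 (SE 1.21), and AT1G30700, of the family of FAD-binding berberine bridge enzymes, fell by 10.35 (SE 1.68).

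The largest rise was in AT5G35935, annotated as a transposable element gene. Its deposited values were 8.88 in the complemented line and 1.59 in b'γ, and it rose by 7.29 (SE 1.03). It stood at 8.72 in b'γ sid2 and 8.78 in b'γζ, so that of the 4 lines b'γ lay nearest to wild type and the others were far above it. GLC (GLAUCE, a BAHD acyltransferase annotated with a role in double fertilization) rose by 5.22 (SE 1.44). PFG3 and PFG2, the flavonol regulators also known as MYB111 and MYB11, rose by 5.09 (SE 0.62) and 4.37 (SE 0.59) in that order. AT3G56920, a putative S-acyltransferase, rose by 4.76 (SE 0.61), and AT1G31690, a putative copper amine oxidase, rose by 4.48 (SE 1.34). TRM24 rose by 4.26 (SE 0.79), the WSD1-like acyltransferase gene AT2G38995 rose by 4.25 (SE 1.16), the receptor-like protein gene RLP6 rose by 4.19 (SE 0.64), and PP2-A5 rose by 4.13 (SE 0.93).

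Salicylic acid genes were lower in the complemented line from synthesis to response. Of 11 genes for synthesis and its regulators, 4 fell and 1 rose, with a median difference of -2.41 against -0.02 over all listed genes. ICS1, the isochorismate synthase of pathogen-induced salicylic acid, had deposited values of 0.32 in the complemented line and 3.18 in b'γ and fell by 2.85 (SE 0.87). The regulator SARD1 fell by 2.65 (SE 0.83), and PAD4, a lipase-like partner of EDS1, fell by 2.03 (SE 0.50). PBS3, which joins isochorismate to glutamate, and EDS5, which exports the precursor from the chloroplast, were -4.09 and -2.45 away without passing the test (SE 1.75 and 0.97). The member that rose was the other isochorismate synthase gene, ICS2, with deposited values of -0.83 in the complemented line and -3.35 in b'γ. It rose by 2.52 (SE 0.49).

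Of 20 genes of the salicylic acid response, 9 fell and 0 rose (2 were 2-fold higher, 1 at an unadjusted p under 0.05 in the largest-error test), with a median of -2.37. PR1, the best known marker of the response, had deposited values of -0.12 in the complemented line and 8.43 in b'γ and fell by 8.55 (SE 1.94). The glucanase gene PR2 fell by 3.95 (SE 0.62) and the thaumatin-like gene PR5 fell by 4.04 (SE 0.69). DLO1 and DMR6, hydroxylases that inactivate salicylic acid, fell by 5.14 (SE 0.87) and fell by 2.80 (SE 0.46) in that order. The receptor gene NPR1 was lower by less than 2-fold, at -0.91 (SE 0.22), and NPR4 likewise at -0.82 (SE 0.17), both with an adjusted p under 0.05. BSMT1, which methylates salicylic acid, was among the members above b'γ, at 2.07 without passing the test (SE 0.95).

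Systemic resistance depends on N-hydroxypipecolic acid, made by ALD1 and FMO1 from lysine. FMO1 had deposited values of 0.68 in the complemented line and 8.10 in b'γ and fell by 7.42 (SE 1.47), and ALD1 fell by 4.95 (SE 1.21). These were the 2 of 6 listed members of that group that fell, and 0 rose, also at an unadjusted p under 0.05 in the largest-error test.

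Camalexin, an indole phytoalexin, had the lowest median of all lists, at -4.25, with 6 of 10 genes fallen and every member below 0. CYP79B2, which makes indole-3-acetaldoxime, fell by 4.48 (SE 0.71). CYP71A13 and CYP71A12, which turn it into a nitrile, fell by 6.01 (SE 0.95) and fell by 7.36 (SE 1.04) in that order, and PAD3, the last enzyme of camalexin synthesis, fell by 4.02 (SE 0.95). CYP79B3, which shares the reaction of CYP79B2, differed by -0.81 (SE 0.33).

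Indole glucosinolates use the same precursor, and their list was mixed, with 1 of 14 genes fallen, 2 risen and a median of -0.52. The fallen share, 7.14%, was near the 6.67% of all listed genes, and the risen share was 14.3%, against 4.36%. The R2R3-MYB regulators went both ways. MYB122 fell by 8.24 (SE 1.35), MYB34 rose by 2.12 (SE 0.58), and MYB51 differed by -1.16 without passing (SE 0.56). CYP81F3, one of the hydroxylases of the indole ring, rose by 1.24 (SE 0.29). Of 13 aliphatic glucosinolate genes 1 fell and 1 rose (7.69% each, against 6.67% and 4.36% of all listed genes). CYP79F1, which acts on chain-elongated methionine, fell by 1.26 (SE 0.25), and the regulator MYB28 rose by 1.07 (SE 0.31).

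In the activated methyl cycle, which supplies S-adenosylmethionine, 1 of 9 genes fell and 0 rose (also at an unadjusted p under 0.05 in the largest-error test). The share that fell was 11.1%, against 6.67% of all listed genes. The S-adenosylmethionine synthetase gene SAM1 fell by 1.56 (SE 0.45), while its relative MAT4 was higher by less than 2-fold, at 0.82 (SE 0.23) with an adjusted p under 0.05. Of 10 genes for aconitases and alternative respiration, AOX1D fell by 6.43 (SE 1.45) and AOX1C rose by 1.67 (SE 0.45), both coding for alternative oxidases of mitochondria. Each is 10% of the list, against 6.67% fallen and 4.36% risen of all listed genes. Aconitase gene ACO1 differed by -0.36 (SE 0.08, an adjusted p under 0.05) and ACO3 by -0.26.

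In the defensin and ethylene branch, 4 of 15 genes fell, 0 rose (also at an unadjusted p under 0.05 in the largest-error test) and every member was below 0, with a median of -1.16. ACS2, which makes the ethylene precursor, fell by 8.04 (SE 1.58). The chitinase gene PR3 fell by 4.56 (SE 0.78), the hevein-like gene PR4 fell by 4.56 (SE 0.78), and the transcription factor gene ERF1 fell by 2.39 (SE 0.82). The defensin gene PDF1.2A kept a deposited value of 2.13 in the complemented line and 5.64 in b'γ and did not pass, at -3.51 (SE 1.27).

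Among receptors and signalling genes of immunity, 8 of 24 fell and 0 rose (also at an unadjusted p under 0.05 in the largest-error test), with a median of -0.92. The Pep peptide precursor genes PROPEP2 and PROPEP3 fell by 6.78 (SE 0.78) and fell by 5.0 (SE 1.41) in that order. FRK1, a receptor kinase gene induced by bacterial flagellin, fell by 5.41 (SE 0.62). The helper immune receptor gene ADR1 fell by 2.03 (SE 0.65) and its relative ADR1-L1 fell by 1.3 (SE 0.34). The kinase genes MPK3, MPK4 and MPK6 differed by -0.32, -0.39 and -0.62, none of them 2-fold. FLS2, the flagellin receptor, was at 0.58 (SE 0.39).

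Jasmonate genes had a list median near that of all listed genes. Of 20 genes for synthesis and response, 0 rose and 0 fell, with a median difference of 0.21, and at an unadjusted p under 0.05 in the largest-error test 1 was higher and 0 lower. Of all listed genes 4.36% rose and 6.67% fell. The median SE of this list was 0.84, against 0.42 over all listed genes, so these counts do not show that values were alike. The list stood above wild type in both lines, with medians of the deposited values of 1.48 in the complemented line and 1.05 in b'γ. JAZ10, a repressor gene that jasmonate induces, had deposited values of 3.44 in the complemented line and 3.67 in b'γ and differed by -0.23 (SE 1.15). CYP94B3, which breaks down the active jasmonate, was 2-fold higher without passing, at 2.50 (SE 1.08).

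**Figure D2:**
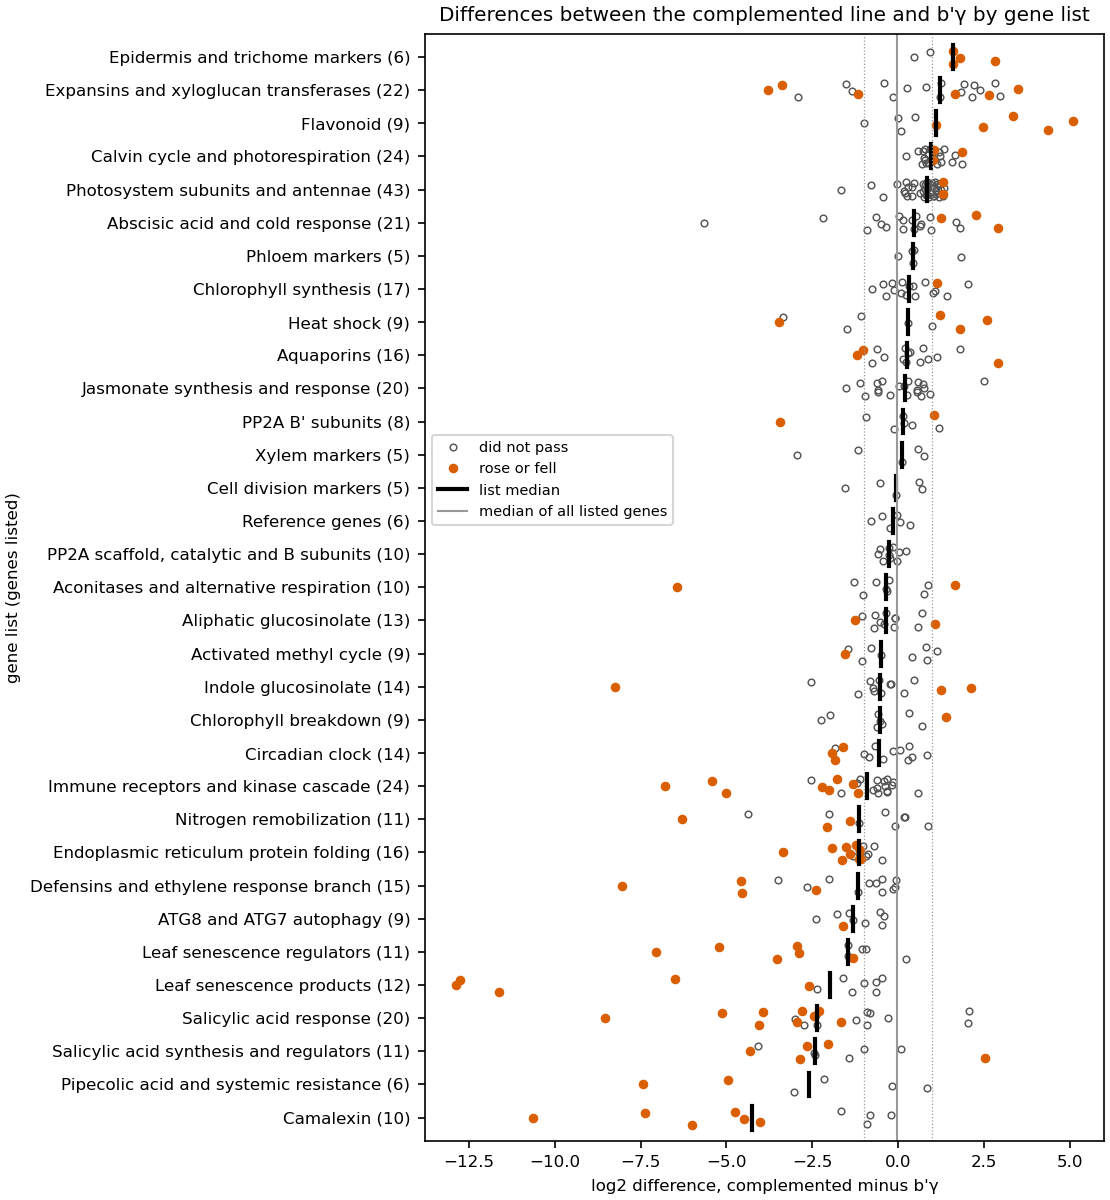
Each row is a gene list with the number of its genes that are listed, each point is a gene, and the horizontal axis is the log2 difference of the complemented line minus b'γ. Filled points rose or fell, black bars are list medians, the grey line is the median of all listed genes at -0.02 and dotted lines mark 2-fold. Camalexin has the lowest list median (-4.25) and epidermis and trichome markers the highest (1.60).

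Senescence regulators were lower, with 6 of 11 genes fallen, 0 risen (also at an unadjusted p under 0.05 in the largest-error test) and a median of -1.47. WRKY75 had deposited values of 1.99 in the complemented line and 9.02 in b'γ and fell by 7.04 (SE 1.07). The NAC factor genes NAP and ORE1, activators of senescence, fell by 5.22 (SE 1.1) and fell by 3.53 (SE 1.0) in that order. JUB1, a NAC factor known to delay senescence, fell by 2.95 (SE 0.62). ATAF1 differed by 0.22 (SE 0.33).

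Of 12 senescence products, 5 fell and 0 rose (also at an unadjusted p under 0.05 in the largest-error test), with every member below 0 and a median of -1.97. Beside SAG12, DOX1 and DIN2, SAG13 fell by 6.49 (SE 1.07) and SEN1 fell by 2.61 (SE 0.55). The chlorophyll breakdown genes were less clear, with 0 of 9 fallen (1 at an unadjusted p under 0.05 in the largest-error test), 1 risen and a median of -0.53. The risen share was 11.1%, against 4.36% of all listed genes, and 6.67% of all listed genes fell. SGR1, the enzyme that takes magnesium out of chlorophyll, differed by -1.98 with a wide error (SE 2.15), and the chlorophyllase gene CLH1 rose by 1.39 (SE 0.47).

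Most genes of nitrogen remobilization and autophagy had values below b'γ, and few passed the test. Of 11 genes for nitrogen remobilization, 8 were below 0, 3 fell (27.3%, against 6.67% of all listed genes) and 0 rose (also at an unadjusted p under 0.05 in the largest-error test), with a median of -1.14. ASN1, an asparagine synthetase induced in the dark, had deposited values of -1.75 in the complemented line and 4.55 in b'γ and fell by 6.30 (SE 1.76). The glutamate dehydrogenase gene GDH2 fell by 2.07 (SE 0.35), and the cytosolic glutamine synthetase gene GLN1;1 fell by 1.39 (SE 0.29). GS2, the glutamine synthetase of chloroplasts, was on the other side at 0.87 without passing (SE 0.45). All 9 listed genes for ATG8 proteins and ATG7 were below 0, with a median of -1.32. Of these only ATG8E (11.1% of the list) passed, and it fell by 1.60 (SE 0.23).

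Genes for protein folding in the endoplasmic reticulum were all below b'γ. Of 16 genes, 12 were at least 2-fold lower and 9 fell and 0 rose (also at an unadjusted p under 0.05 in the largest-error test), and the median was -1.14. The chaperone gene BIP3 fell by 3.35 (SE 0.78), against -0.93 for BIP1 (SE 0.41). The disulfide isomerase gene PDIL1-2 fell by 1.94 (SE 0.42), and the calreticulin gene CRT3 fell by 1.63 (SE 0.42). BZIP60, a transcription factor of the unfolded protein response, differed by -0.47 (SE 0.51).

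Most photosynthesis genes had values above b'γ, but few passed the test. Of 43 genes for photosystem subunits and antennae, 39 were above 0, with a median of 0.84. At least 2-fold higher values were found for 15 (34.9%, against 12.9% of all listed genes), and for 1 the value was 2-fold lower. The share that rose, 2 genes or 4.65%, was near the 4.36% of all listed genes, and 0 fell (also at an unadjusted p under 0.05 in the largest-error test). PETC, the Rieske protein of the cytochrome b6f complex, had deposited values of -0.08 in the complemented line and -1.39 in b'γ and rose by 1.31 (SE 0.45). NPQ4, the PsbS protein that dissipates excess light, rose by 1.31 (SE 0.42). The median SE of this list was 2.36, against 0.42 over all listed genes, and the authors' corrected interaction p-value was under 0.05 for 42 of its 43 genes, against 42.4% of all listed genes. That p-value tests whether line differences depend on the leaf part, and the SE limit widens where they do.

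Of the 13 antenna genes of photosystem II, 10 were above b'γ and 3 below, with a median difference of 0.29. The 3 below it are described here. LHCB2.1 had deposited values of -2.59 in the complemented line and -1.81 in b'γ and differed by -0.78 (SE 0.39). LHCB2.2 stood at -2.48 in the complemented line and -2.06 in b'γ in the deposited table, and LHCB1.4 at -1.92 in the complemented line and -0.25 in b'γ. These 3 members were further below wild type in the complemented line than in b'γ, with no difference that passed.

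All 24 genes of the Calvin cycle and photorespiration were above 0, with 12 of them 2-fold higher, 3 risen, 0 fallen (also at an unadjusted p under 0.05 in the largest-error test) and a median of 0.97. The 2-fold higher share was 50%, against 12.9% of all listed genes, and the risen share 12.5%, against 4.36%. The Rubisco small subunit gene RBCS1B rose by 1.85 (SE 0.47). The photorespiration genes PGLP1 and GLYK rose by 1.05 (SE 0.34) and 1.01 (SE 0.34) in that order. The list medians of the deposited values were 0.02 in the complemented line and -1.0 in b'γ. Of 17 chlorophyll synthesis genes, 1 rose and 0 fell (also at an unadjusted p under 0.05 in the largest-error test), with a median of 0.30. The share that rose, 5.88%, was near the 4.36% of all listed genes. CHLG, which adds the phytol tail, rose by 1.14 (SE 0.37), and HEMA1, the first enzyme of the branch, was lower by less than 2-fold at -0.77 (SE 0.14) with an adjusted p under 0.05.

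Genes of flavonol synthesis and their regulators were mostly higher. Of 9 flavonoid genes, 5 rose and 0 fell (also at an unadjusted p under 0.05 in the largest-error test), with a median of 1.11. Beside PFG3 and PFG2, MYB12, the third regulator of that group, rose by 2.48 (SE 0.58). The flavonol synthase gene FLS1 had deposited values of 0.53 in the complemented line and -2.81 in b'γ and rose by 3.33 (SE 0.80). TT5, a chalcone isomerase, rose by 1.11 (SE 0.30). The anthocyanin regulator genes AT1G56650 and AT1G66390 differed by -0.02 and -0.98 without passing.

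Of 21 genes of the abscisic acid and cold response, 3 rose and 0 fell (1 at an unadjusted p under 0.05 in the largest-error test), with a median of 0.46. The risen share was 14.3%, against 4.36% of all listed genes. COR15A, which protects chloroplast membranes in the cold, had deposited values of -0.99 in the complemented line and -3.89 in b'γ and rose by 2.90 (SE 0.85). RD22 rose by 2.26 (SE 0.64) and RD29A rose by 1.26 (SE 0.24). The cold regulators CBF1, CBF2 and CBF3 differed by 0.15, -0.35 and 0.04. CBF2 was low in both lines, with deposited values of -1.98 in the complemented line and -1.63 in b'γ. NCED5, an enzyme of abscisic acid synthesis, was -5.66 away with an SE of 2.54.

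Genes of cell wall extension went in both directions, with 3 of 22 risen, 3 fallen and a median of 1.23. Each share was 13.6%, against 4.36% risen and 6.67% fallen of all listed genes. The expansin gene EXPA5 rose by 2.64 (SE 0.46), EXPA10 rose by 1.66 (SE 0.49), and the xyloglucan transferase gene XTH8 rose by 3.49 (SE 1.18). Within the same family XTH23 fell by 3.79 (SE 0.91), XTH19 fell by 3.39 (SE 0.92) and XTH24 fell by 1.17 (SE 0.35). Of 16 aquaporin genes, PIP2;8 rose by 2.91 (SE 0.88), while PIP2B fell by 1.19 (SE 0.29) and PIP1A fell by 1.02 (SE 0.15). As shares, 6.25% rose and 12.5% fell, against 4.36% and 6.67% of all listed genes.

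Markers of single cell types were set beside these results. Of 6 listed epidermis and trichome markers, 4 rose and 0 fell (also at an unadjusted p under 0.05 in the largest-error test), with a median of 1.60, the highest of the lists with at least 5 listed genes. ATML1, a homeodomain factor of the outer cell layer, rose by 1.61 (SE 0.27). LTPG1, a lipid transfer protein that exports cuticular wax, had deposited values of 0.09 in the complemented line and -2.74 in b'γ and rose by 2.82 (SE 0.46). KCS10, a fatty acid elongase of the epidermis, rose by 1.60 (SE 0.28), and GL3, a regulator of trichomes, rose by 1.79 (SE 0.49). The guard cell channel gene KAT1 fell by 1.74 (SE 0.45), while the other 3 guard cell markers lay between 0.27 and 0.48. Phloem, xylem, myrosin cell and cell division markers gave 0 that rose and 0 that fell among 18 listed genes, with 1 phloem marker higher at an unadjusted p under 0.05 in the largest-error test. All 5 phloem and all 3 myrosin cell markers were above 0, with medians of 0.44 and 1.04, and 2 myrosin cell markers were 2-fold higher. Of 5 xylem markers 3 were above 0 and 2 were 2-fold lower (median SE 1.81). Of 5 cell division markers 2 were above 0 and 3 below. The floral factor gene SEP3 rose by 3.91 (SE 1.06). The part of these markers in the other differences was not tested.

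**Figure D3:**
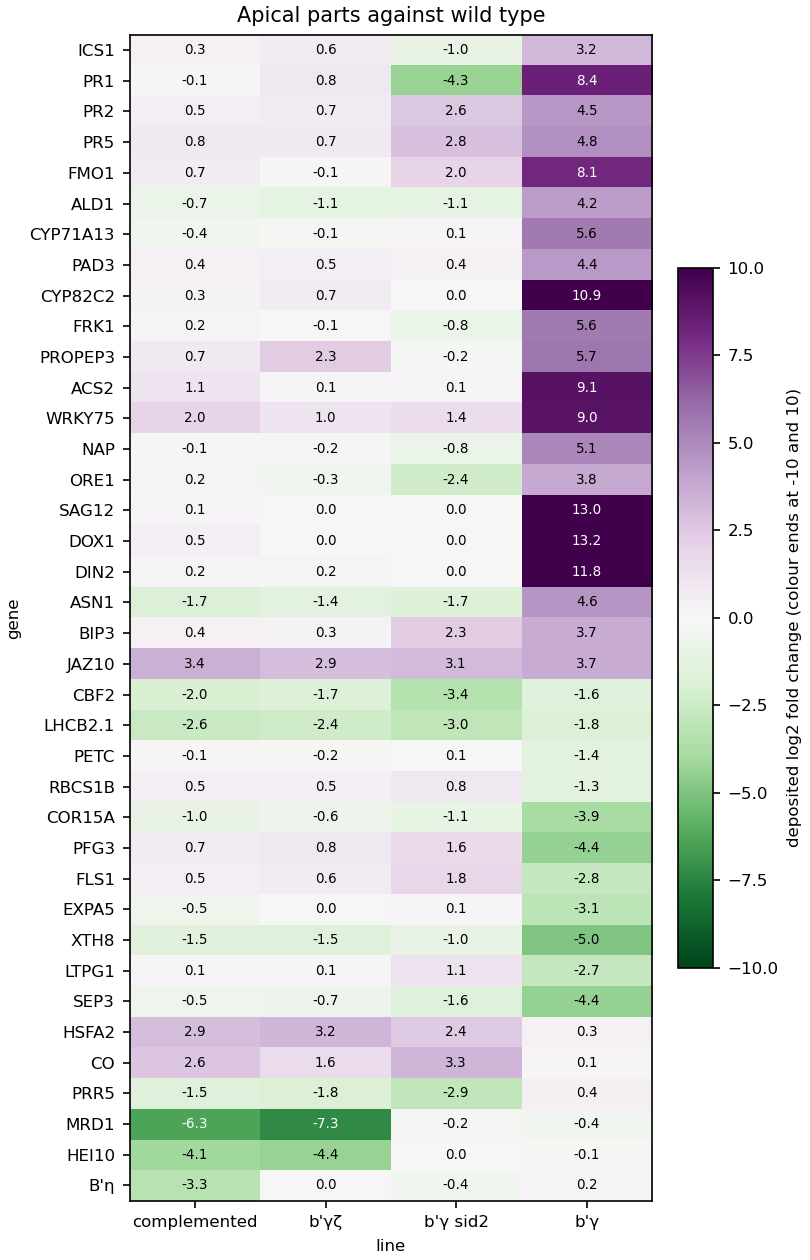
The heat map gives the authors' deposited log2 fold change of apical parts against wild type for 38 genes (rows) in the 4 lines (columns), printed in each cell and coloured from green (lower) to purple (higher). PR1 is at -0.1 in the complemented line and 8.4 in b'γ, JAZ10 is high in all 4 columns, and B'η is low in the complemented line alone.

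Some genes differed although b'γ was close to wild type. Among 7409 genes within 0.5 log2 units of wild type in b'γ, 31 rose and 33 fell. Both shares were smaller than over all 18231 listed genes, of which 794 rose (4.36%) and 1216 fell (6.67%). By this choice of genes, the complemented line was the one of the 2 lines away from wild type. MRD1 (AT1G53480), named for its fall in the methionine-rich mutant mto1, had deposited values of -6.35 in the complemented line and -0.43 in b'γ and fell by 5.91 (SE 0.30). The next listed gene on chromosome 1, HEI10 (AT1G53490), a RING protein needed for meiotic crossovers, had deposited values of -4.09 in the complemented line and -0.10 in b'γ and fell by 4.0 (SE 0.16). Both were low in b'γζ too, at -7.28 and -4.36 in the deposited table, and near 0 in b'γ sid2, at -0.16 and -0.05. The listed genes on either side, AT1G53460 and MUM4, differed by 0.43 and 0.57. AT3G22961 fell by 2.49 (SE 0.61), and the pseudogene AT3G30122 fell by 2.03 (SE 0.21).

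On the higher side of this set, HSFA2, a heat stress transcription factor, had deposited values of 2.93 in the complemented line and 0.34 in b'γ and rose by 2.59 (SE 0.64). It was also high in both double mutants, at 2.36 in b'γ sid2 and 3.21 in b'γζ. The heat shock protein genes HSP70 and HSP70T-2 rose by 1.79 (SE 0.26) and 1.22 (SE 0.42) in that order, yet the small heat shock protein gene HSP17.4 fell by 3.48 (SE 0.97). The heat shock list as a whole had 3 of 9 genes risen, 1 fallen and a median of 0.29. As shares, 33.3% rose and 11.1% fell, against 4.36% and 6.67% of all listed genes. CO, the daylength factor CONSTANS, had deposited values of 2.61 in the complemented line and 0.13 in b'γ and rose by 2.47 (SE 0.33). AT2G30830, a 2-oxoglutarate dependent dioxygenase, rose by 2.27 (SE 0.73), the hydrolase gene AT1G80280 rose by 1.80 (SE 0.27), and the thionin gene AT1G66100 rose by 1.63 (SE 0.52).

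Clock genes were partly lower in the complemented line, with 3 of 14 fallen, 0 risen (also at an unadjusted p under 0.05 in the largest-error test) and a median of -0.55. The fallen share was 21.4%, against 6.67% of all listed genes. PRR5, a repressor of the clock, had deposited values of -1.51 in the complemented line and 0.42 in b'γ and fell by 1.93 (SE 0.12). It was also low in both double mutants, at -2.90 in b'γ sid2 and -1.82 in b'γζ. PRR9 fell by 1.62 (SE 0.33) and RVE8 fell by 1.83 (SE 0.53). CCA1 was just short of 2-fold, at -0.99 (SE 0.28) with an adjusted p under 0.05, and GI differed by 0.04 (SE 0.12).

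The smallest differences among genes far from wild type in b'γ were also listed. Among the 200 genes furthest from wild type in b'γ, the 5 smallest differences were 3.49 or more in size. The b'γ value is a term of the difference, so this choice of genes itself favours large differences. The pseudogene AT1G69140 stood at -2.50 in the complemented line and -5.99 in b'γ in the deposited table and differed by 3.49 (SE 1.38). PDF1.2A came next, followed by CYP710A1, a sterol desaturase gene, at -3.90 (SE 3.13), and BAP2, an inhibitor of cell death, at -3.97 (SE 3.76). AT4G25070 stood at 2.0 in the complemented line and 6.04 in b'γ in the deposited table and fell by 4.04 (SE 0.87).

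A stretch of chromosome 5 was lower as a block in the complemented line. From AT5G03406 to AT5G05250 (TAIR10.1, chr5:839754-1558486, 718733 bases) 164 genes were listed, and their median difference was -0.93, against -0.01 on the rest of chromosome 5. Of them 146 lay below 0, 96 lay within 0.5 of -1, and 71 fell while 0 rose (1 at an unadjusted p under 0.05 in the largest-error test), where 6.67% of all listed genes fell. In the deposited values the medians were 0.01 in the complemented line and 0.96 in b'γ, so that the complemented line lay near the wild-type level and b'γ about 1 doubling above it. The median was 1.02 in b'γ sid2 and 1.0 in b'γζ. The 20 listed genes before the stretch had a median difference of -0.13 and the 20 after it of -0.14. The stretch was first bounded by the values of the 2 double mutants, not by those of the complemented line or b'γ, but all 4 lines share the wild-type pools in the deposited values.

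Within the stretch the median was the same, at -0.93, for the 103 genes whose corrected interaction p-value was not under 0.05. The widest differences were in AT5G04390, a C2H2 zinc finger gene, at -4.16 without passing (SE 3.34), and AT5G03550, which stood at 0.00 in the complemented line and both double mutants, and at 4.06 in b'γ. The GDSL lipase gene AT5G03610 fell by 3.23 (SE 0.38), AT5G03890 fell by 3.15 (SE 0.85), and the nicotianamine synthase gene NAS1 differed by -3.19 without passing (SE 1.56). The helper receptor gene ADR1-L2 belongs to it and fell by 2.23 (SE 0.34), as do B'α, the metacaspase gene MC9 at -2.95 (SE 2.78) and the chlorophyll b reductase gene NOL at -0.53 (SE 0.09).

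In windows of 31 neighbouring listed genes along the 5 chromosomes, 2 other places had medians below -1. The lowest, -1.36, was centred on AT1G51760 on chromosome 1, and the other, -1.13, on AT4G23200 on chromosome 4. The lowest window of the stretch had -1.17, and the lowest on chromosome 5 with no gene of the stretch had -0.97, centred on AT5G39000. The highest window median anywhere was 0.76, centred on AT1G29460 on chromosome 1.

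**Figure D4:**
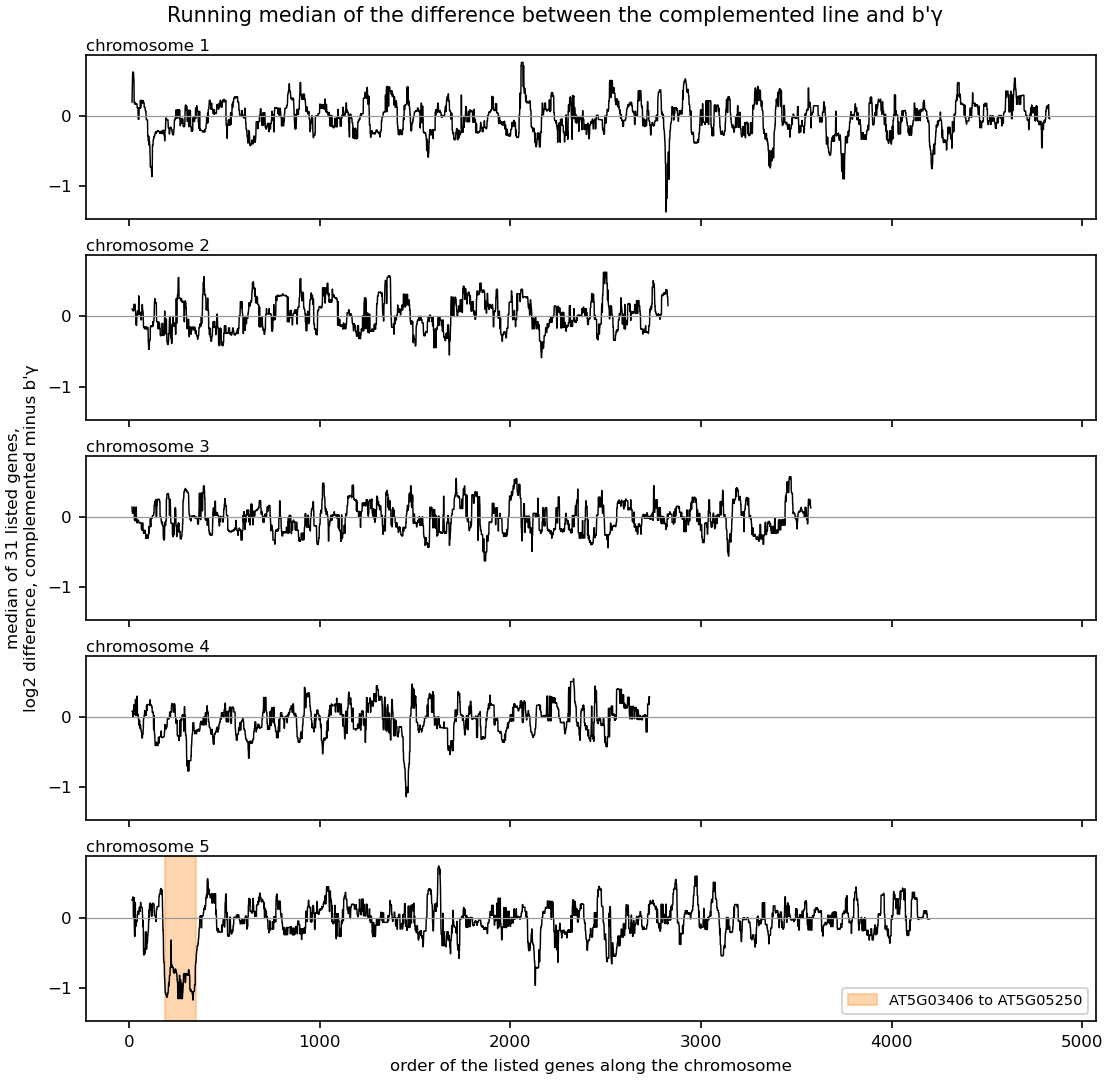
The vertical axis is the median log2 difference of the complemented line minus b'γ in windows of 31 neighbouring listed genes, and the horizontal axis the order of listed genes along each chromosome. The shaded stretch of chromosome 5 covers 164 listed genes and has a lowest window of -1.17. The lowest windows on chromosomes 1 and 4 are at -1.36 and -1.13. The width of the dips was not measured.

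**Figure D5:**
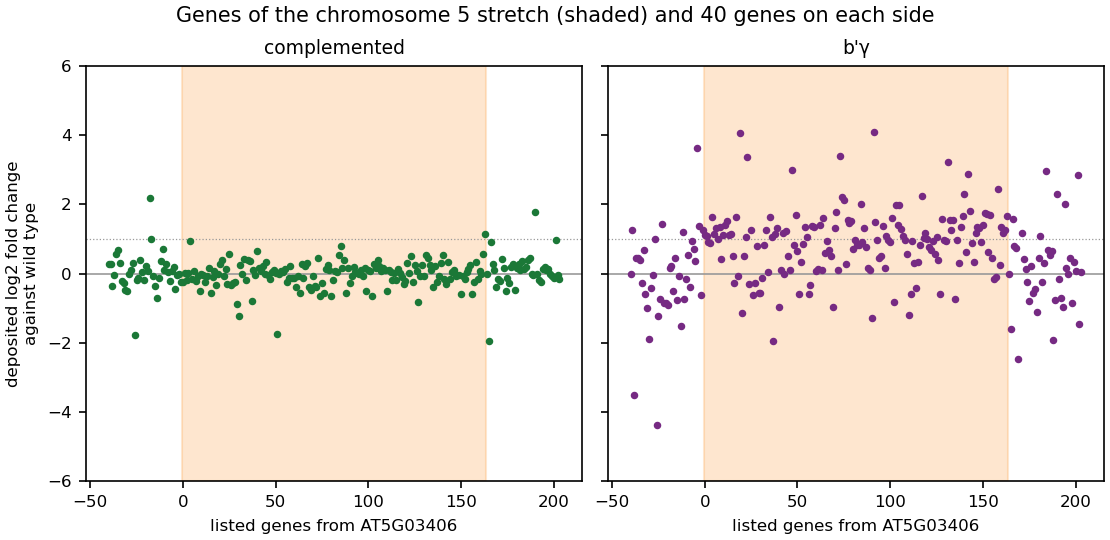
Points are listed genes of chromosome 5 in order, with the complemented line on the left and b'γ on the right, and the vertical axis is the deposited log2 fold change against wild type, drawn from -6 to 6 with 1 gene outside that range. Inside the shading the complemented line scatters around its median of 0.01 and b'γ around 0.96, with 40 flanking genes on each side.

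Both double mutants also differed from b'γ, and their values are set beside those of the complemented line without a test, since all 3 comparisons share the b'γ pools. For camalexin the medians of the difference from b'γ were -4.25 in the complemented line, -3.84 in b'γ sid2 and -4.11 in b'γζ. For salicylic acid synthesis they were -2.41, -2.52 and -1.65 in the same order, for photosystem genes 0.84, 1.01 and 0.93, and for folding in the endoplasmic reticulum -1.14, -0.60 and -1.43.

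The complemented line was then tested against each double mutant directly. Against b'γζ, 10 genes rose and 73 fell (0.0549% and 0.4% of those listed), and 54 of the 73 lie in the chromosome 5 stretch. Outside it 10 rose and 19 fell, with 57 and 101 at an unadjusted p under 0.05 in the same test. Of 448 listed genes of all lists, B'ζ rose and B'η and ADR1-L2 fell, and no other passed, with 1 higher and 7 lower at an unadjusted p under 0.05. B'ζ itself was 2.33 higher than in b'γζ (SE 0.13). PCC1, a gene controlled by pathogens and the clock, was 3.06 higher than in b'γζ (SE 0.36).

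Several genes were near wild type in the complemented line and high in all 3 lines without the transgene, and they are named here after their values were seen. FLC, the repressor of flowering, had deposited values of -0.49 in the complemented line and 1.75 in b'γ, and stood at 2.22 in b'γ sid2 and 2.08 in b'γζ. The complemented line minus each of them was -2.24 for b'γ, -2.71 for b'γ sid2 and -2.57 for b'γζ (SE 0.18 for each), and it passed the test in all 3. ARI3, a putative ubiquitin ligase gene, was also lowest in the complemented line, with deposited values of -0.40 in the complemented line and 3.40 in b'γ and of 3.48 in b'γ sid2 and 2.61 in b'γζ. AT4G00250, of the storekeeper family, stood at 0.24 in the complemented line and 3.54 in b'γ in the deposited table, and at 3.53 in b'γ sid2 and 3.95 in b'γζ.

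Against b'γ sid2, 103 genes rose and 156 fell (0.565% and 0.856%), and 62 of the 156 lie in the stretch. PDF1.2A and VSP1, genes of the jasmonate and ethylene branches, were 6.60 and 5.28 lower in the complemented line on the log2 scale (SE 1.27 and 1.11). PR1 was 4.2 higher than in b'γ sid2 and did not pass (SE 1.94).

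Promoters of genes that fell held the W box, the sequence bound by WRKY factors, more often than those of listed genes at large. It was searched as TTGACC or TTGACT on both strands in the 250 bases before the annotated start (RefSeq, TAIR10.1). It was present in 42.5% of 1214 promoters of genes that fell, 23.1% of 793 of genes that rose and 28.5% of all 18152. The TGACG element was present in 22.8%, 16.1% and 19.5% in the same order. The G box CACGTG was in 6.43%, 7.94% and 7.49%, the GCC box GCCGCC in 1.65%, 1.13% and 1.98%, and the evening element AAATATCT in 7.25%, 6.31% and 5.24%. No pair of these motifs can share all of its bases, and no test was run. Among the 72 genes of the lists that fell the share was smaller, 20.8% (15 promoters), below that of all listed genes. The promoters of the 2 with the most, PROPEP3 with 4 and CYP82C2 with 3, are shown with those of FRK1 and of HSFA2, which rose, 5′ to 3′ and ending at the base before the start, with matches to any of the 5 motifs in capitals.
PROPEP3 (chr5:25939312-25939561, plus strand): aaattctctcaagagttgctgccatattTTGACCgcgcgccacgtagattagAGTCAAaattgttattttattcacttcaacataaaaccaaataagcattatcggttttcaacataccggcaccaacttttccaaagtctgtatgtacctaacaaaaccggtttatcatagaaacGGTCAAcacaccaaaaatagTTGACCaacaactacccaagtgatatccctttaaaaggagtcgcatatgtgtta
CYP82C2 (chr4:15462100-15462349, plus strand): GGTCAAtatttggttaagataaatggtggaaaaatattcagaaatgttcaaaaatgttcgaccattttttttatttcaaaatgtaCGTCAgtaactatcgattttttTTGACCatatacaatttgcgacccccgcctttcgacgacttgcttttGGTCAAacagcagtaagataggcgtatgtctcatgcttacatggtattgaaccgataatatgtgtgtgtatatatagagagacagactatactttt
FRK1 (chr2:8329945-8330194, minus strand): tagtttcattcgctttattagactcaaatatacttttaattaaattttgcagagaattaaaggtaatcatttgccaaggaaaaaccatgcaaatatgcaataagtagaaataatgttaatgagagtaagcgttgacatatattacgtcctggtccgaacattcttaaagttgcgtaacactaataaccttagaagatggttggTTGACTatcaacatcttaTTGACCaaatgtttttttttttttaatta
HSFA2 (chr2:11135374-11135623, plus strand): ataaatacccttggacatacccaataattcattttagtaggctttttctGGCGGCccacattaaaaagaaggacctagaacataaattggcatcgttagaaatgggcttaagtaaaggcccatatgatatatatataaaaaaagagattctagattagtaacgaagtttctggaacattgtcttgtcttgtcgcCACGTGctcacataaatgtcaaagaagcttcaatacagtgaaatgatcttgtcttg
In PROPEP3 the W boxes begin 222, 198, 74 and 54 bases before the start. HSFA2 holds a GCC box on the minus strand 201 bases and a G box 56 bases before the start. A match describes letters in this window and does not show that a factor binds there.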

How the data were processed

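Poly(A) RNA of 50 pools of leaf parts (5 lines, apical and basal parts, 5 pools each) was sequenced from stranded libraries, per the labels. Per the submitters' processing notes, bcl2fastq and DESeq were used with build TAIR10, with no version given. In the table used, each of 4 columns gives, for the apical parts of 1 line, the log2 fold change from wild type that the authors deposited. Another 6 columns hold the authors' deposited p-values for genotype, tissue and their interaction. Log base 2 is not in the header and was read from steps of 0.2 in low genes (61 values 1 step above recurrent ones, against 16 for natural logs or base 10). The deposited corrected p-values were read as Benjamini-Hochberg over 25801 genes.

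From these values the complemented line minus b'γ was computed per gene. For each gene, F values (4 and 40 degrees of freedom) were derived from the p-values of genotype and interaction. Together with the apical fold changes they bound the residual SD, where basal line means were allowed a span of 20 log2 units. This SD was taken as the same in all groups of pools. The upper bound gave the SE, the 95% interval and the contrast test. The model was checked on 159 genes at exactly 0 in 3 lines, and 69 had both F values within 2%. The F values should be alike there if the basal line means did not differ. No basal values were available, so this check cannot decide whether the model holds. The fit of the model is assumed for all genes. The test was tried on simulated data with known answers, drawn from the same model, so its fit was not tested there. The labels call the 5 pools of a group biological replicates, and apical and basal pools of 1 number came from the same leaves, which the 40 degrees of freedom do not take up. Intervals of counts were not computed because depth is unknown.

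Genes and the 36 lists (448 of 481 distinct genes listed) were chosen with earlier results of these data known. Named genes were B' subunits, ICS1, PR1, SAG12, the 10 largest rises and falls, the 3 largest of each list with at least 3 members past 2-fold and other members where a group is described, the 5 largest and list members of the chromosome 5 stretch, and the extremes among genes near or far from wild type in b'γ. Symbols came from the file and RefSeq (TAIR10.1), in which 18153 identifiers matched. Python 3.11.15, numpy 2.4.6, pandas 2.3.3, scipy 1.17.1 and matplotlib 3.10.9 were used. Alternatives were other size limits, centrings, corrected genotype p limits, variances, corrections and gene sets.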

Additional observations from a re-analysis of the deposited data

How the results depend on the processing

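No paired analysis was possible because the deposited table holds no values for single pools, and leaving out each pool could not be run for the same reason. With a 1.5-fold limit, 4323 genes were higher and 4340 lower, 1216 rose, and the list genes had 137 higher. In the chromosome 5 stretch that limit gave 6 higher and 1 that rose. With a 4-fold limit, 527 were higher and 1299 lower, and 244 rose and 689 fell. That limit left 0 higher, 12 lower and 7 fallen in the stretch, and 23 higher, 72 lower and 14 risen among list genes. With the equal-parts variance 2208 rose and 2629 fell, and with the smallest 2310 and 2726. With no size limit 1481 rose and 1909 fell. With genes past 2-fold in place of those that passed the test, W boxes were in 38.5% and evening elements in 5.55% of promoters on the lower side. Centring on the reference genes (median -0.14) turned the balance of directions, with 2875 higher and 2433 lower, and 1126 risen and 1027 fallen. Each of these counts stayed within 1.5 times its main value. The same held for centring on all listed genes, the limit of 0.01 on the corrected genotype p and leaving out the stretch. Among counts of single lists over the settings tried, 102 moved by more than 1.5 times and 618 did not. Of 124 named genes, 18 no longer passed under the 4-fold limit, and 36 that did not pass did so under at least 1 other setting. Whether directions hold could not be tried this way. Only the centrings change a difference, by 0.14 or 0.02, too little to turn a gene past 2-fold. Depth is unknown, so what it limits cannot be given. Genes listed at exactly 0 in a line or at a lowest value that lines share make up 440 of those listed, 260 of those 2-fold lower and 3 of those 2-fold higher.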
